A study of Mus musculus with 2 samples.

Results

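The DNA repair gene families measured here comprised 81 RefSeq entries of 66 gene symbols, out of 24165 entries and 20128 symbols in a table of gene activity in C2C12 cells. They were chosen by symbol alone: Fanc followed by a letter from a to m, Xrcc, Rad, Msh, Ercc or Parp followed by a digit, Brca1, Brca2, Atm, Atr, Mre11a and Nbn, with the cohesin gene Rad21 left out. The rule itself uses no measured value. C2C12 is an established mouse line of myoblasts, the proliferating precursors of muscle fibres. All cells of the series were untreated and of a single kind, grown to 80% confluency, and 2 global run-on sequencing (GRO-seq) libraries were made from their nuclei. GRO-seq lets engaged RNA polymerase II extend its transcript in isolated nuclei and sequences that RNA, so it reads ongoing transcription and not the amount of stable mRNA. Gene activity is given in RPKmM, reads per kilobase of mappable sequence scaled to library size, on the sense strand from 1 kb after the transcription start site to the transcript end. The word Inactive stands in place of a value for a gene with no more reads than gene deserts hold, at a false discovery rate of 0.01.

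The 2 libraries had been pooled into 1 value per entry. The table therefore holds no spread between replicates and no depth, and the levels below are descriptions without an SD or a test. Scaling by mappable length makes levels of different genes comparable. Activity was averaged over a culture, so fewer cells transcribing a gene and less transcription per cell cannot be told apart. The cell type label was checked against markers. All 7 myoblast markers were active, from 2.39 RPKmM for the muscle regulators Myod1 and Myog to 72.45 RPKmM for Des, which encodes the intermediate filament desmin. All 5 markers of differentiated muscle were active too, from 0.14 RPKmM for the myosin gene Myh4 to 6.85 RPKmM for the actin gene Acta1. The markers therefore do not show that all cells of the culture were proliferating. Of 4 fibroblast markers 3 were active, and the collagen genes Col1a2 and Col1a1, at 28.94 and 9.29 RPKmM, lay above Myod1 and Myog, while Pdgfra had 0.29 and 0.38 RPKmM and Thy1 was inactive. Of 6 germ cell markers only Sycp3 was active, at 0.02 RPKmM, while Ddx4, Dazl, Stra8, Sycp1 and Dppa3 were inactive.

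Cells repair DNA by several routes that recognise different lesions. Single-strand break repair seals nicks, mismatch repair removes replication errors, nucleotide excision repair cuts out bulky damage, and double-strand breaks are joined end to end or copied from a sister chromatid by homologous recombination, with Fanconi anaemia proteins acting where strands are crosslinked. Several of these families also have relatives that work mainly in germ cells, where breaks are made on purpose so that homologous chromosomes can recombine in meiosis. A proliferating myoblast uses the first kind and does not enter meiosis.

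Nearly the whole set was transcribed, at moderate levels that stayed close together. Of the 81 entries 79 were active, or 97.5%, where 70.2% of all entries were, and 64 of the 66 symbols had an active entry, or 97.0% against 68.7% of all symbols. Both exceptions, Rad21l and Rad51ap2, are meiotic genes. The median of the active members was 0.72 RPKmM with quartiles of 0.44 and 1.12, beside a median of 0.87 RPKmM with quartiles of 0.22 and 1.99 over all active entries. The upper quartile was 2.56 times the lower among the members and 9.05 times the lower among all active entries. As many as 67 of the 79 active members, or 84.8%, lay between the quartiles of all active entries, an interval that holds 50.2% of those entries. Only 7 members lay above it and 5 below.

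The low end of the scale held few of the members. Only 2 of the 79 active members lay below 0.1 RPKmM, or 2.53% against 18.5% of all active entries. These were Parp14, at 0.04 RPKmM, and Rad9b, at 0.06 RPKmM. At the other end 23 of the 81 entries reached 1 RPKmM, or 28.4% against 32.3% of all entries, which is near the background. By gene, 22 of the 66 symbols, or 33.3%, had an entry at that level, against 31.6% of all symbols. A level of 10 RPKmM was reached by 1 member, Parp3, and by 2.03% of all entries. The plot of cumulative shares shows this as a steeper curve for the members, which starts later and ends earlier than that of all active entries.

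**Figure D1:**
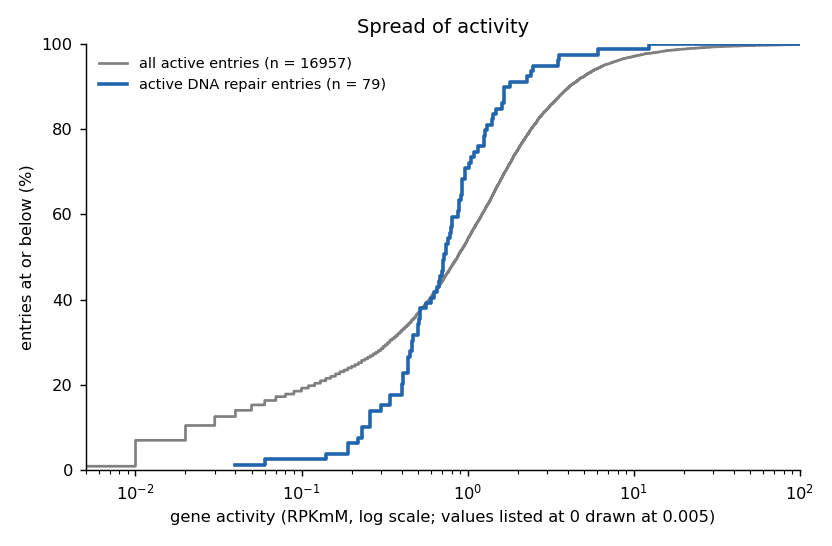
Cumulative share of active entries (y axis, %) at or below each level of gene activity (x axis, RPKmM on a log scale) for the 79 active DNA repair entries and for all 16957 active entries, both libraries pooled. The curves cross near their middle, and the members' curve is the steeper, with quartiles of 0.44 and 1.12 RPKmM against 0.22 and 1.99 RPKmM.

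Among the routes, single-strand break repair had the highest median, 2.92 RPKmM over 4 entries, and spanned a wide range. Xrcc1, the scaffold of that pathway, had an activity of 0.46 RPKmM. The 3 poly(ADP-ribose) polymerases that are switched on by DNA ends were all higher, with 2.28 RPKmM for Parp1, 3.57 RPKmM for Parp2 and 12.38 RPKmM for Parp3. Parp3, which acts on double-strand breaks as well, was the highest member of all and lay above 97.8% of active entries. It was 3.47 times as high as Parp2, which in turn was 1.57 times as high as Parp1. The gene is short, 6.63 kb at chr9:106372653-106379280 on the minus strand (mm9).

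Excision and mismatch repair each held a gene well above the other members of the route that are named here. The 10 entries of nucleotide excision and transcription-coupled repair had a median of 0.865 RPKmM and ranged from 0.56 RPKmM for Ercc4, which encodes a subunit of the nuclease that cuts on the 5′ side of a lesion, to 6.11 RPKmM for Rad23b. Rad23b, which encodes a partner of the damage sensor Xpc, lay above 94.3% of active entries. Ercc6, which encodes the ATPase that couples repair to stalled polymerase, had 2.47 RPKmM, or 3.43 times the level of its pathway partner Ercc8 at 0.72 RPKmM. The nuclease partners differed less, Ercc1 being 1.38 times as high as Ercc4.

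In mismatch repair Msh6 serves the recognition of single mismatches and Msh3 that of larger loops. Msh6 had 3.51 RPKmM and both Msh3 entries had 0.52 RPKmM. Msh6 lay above 87.4% of active entries.

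Double-strand break repair sat near the middle of the scale. The 16 entries of homologous recombination had a median of 0.72 RPKmM. They ranged from 0.22 RPKmM for Xrcc3 to 1.49 RPKmM for Xrcc2, paralogues that act together with other recombination proteins, so that Xrcc2 was 6.77 times as high as Xrcc3. Both entries of Rad51c, whose product binds that of Xrcc3, had 0.23 RPKmM. Rad52, an annealing protein, had 1.31 and 1.25 RPKmM. Brca1 and Brca2, which act in the preparation of ends and in strand exchange, had 0.79 and 0.91 RPKmM and so differed by 1.15 times. In end joining the Ku subunits Xrcc5 and Xrcc6, which form a heterodimer on broken ends, had 2.41 and 1.26 RPKmM, a ratio of 1.91, and the ligase partner Xrcc4 had 0.63 RPKmM.

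Break sensing and checkpoint genes had a median of 0.97 RPKmM over 11 entries. The kinase Atr, which responds to single-stranded DNA at stalled forks, had 1.42 RPKmM and was 3.55 times as high as Atm, the kinase of double-strand breaks, at 0.4 RPKmM. The break-binding complex of Rad50, Mre11a and Nbn was uneven as well, with Rad50 at 1.4 RPKmM, or 1.79 times Mre11a and 3.04 times Nbn. The extremes of the group were paralogues. Rad9a, a subunit of the checkpoint clamp, had 1.61 RPKmM, 26.8 times the 0.06 RPKmM of Rad9b, which is known mainly from testis. The clamp partner Rad1 had 3 entries at 0.97, 0.65 and 0.97 RPKmM. Rad17, which loads the clamp, had 1.05 RPKmM, and Rad18, the ubiquitin ligase of post-replication repair, had 1.66 RPKmM.

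The Fanconi anaemia genes lay close together below the overall median. Their 9 entries ran from 0.3 RPKmM for Fancg, a subunit of the core complex, to 0.76 RPKmM for Fance, another core subunit, with a median of 0.5 RPKmM. Every entry lay between the lower quartile and the median of all active entries, and none reached 1 RPKmM. Fancl, the ubiquitin ligase of the complex, had 0.71 RPKmM, and Fanci, which that ligase modifies, had 0.44 RPKmM. Fancm, the translocase that anchors the complex on DNA, had 0.47 RPKmM.

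Parp genes outside Parp1, Parp2 and Parp3 carry the family's catalytic fold but act largely outside DNA repair. Their 9 entries had a median of 0.34 RPKmM and ran from 0.04 RPKmM for Parp14, a macrodomain protein, to 1.8 RPKmM for Parp6. Parp8 was 29.0 times as high as Parp14, with 1.16 RPKmM. Of the low members, Parp16 had 0.14 RPKmM and Parp9 had 0.19 RPKmM. The value of Parp10, 0.34 RPKmM, comes from a gene whose annotation overlaps Plec on the same strand by 1401 bases, and the 11 Plec entries had 28.91 to 65.38 RPKmM. The part of these reads in the Parp10 value was not tested. The remaining 6 entries, of relatives that bear a family name without a settled role in repair, had a median of 0.55 RPKmM, from 0.34 RPKmM for an entry of Xrcc6bp1 to 1.65 RPKmM for Ercc6l, a helicase of mitotic chromosomes. The plot of activity by role shows these groups beside the interval between the quartiles of all active entries.

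**Figure D2:**
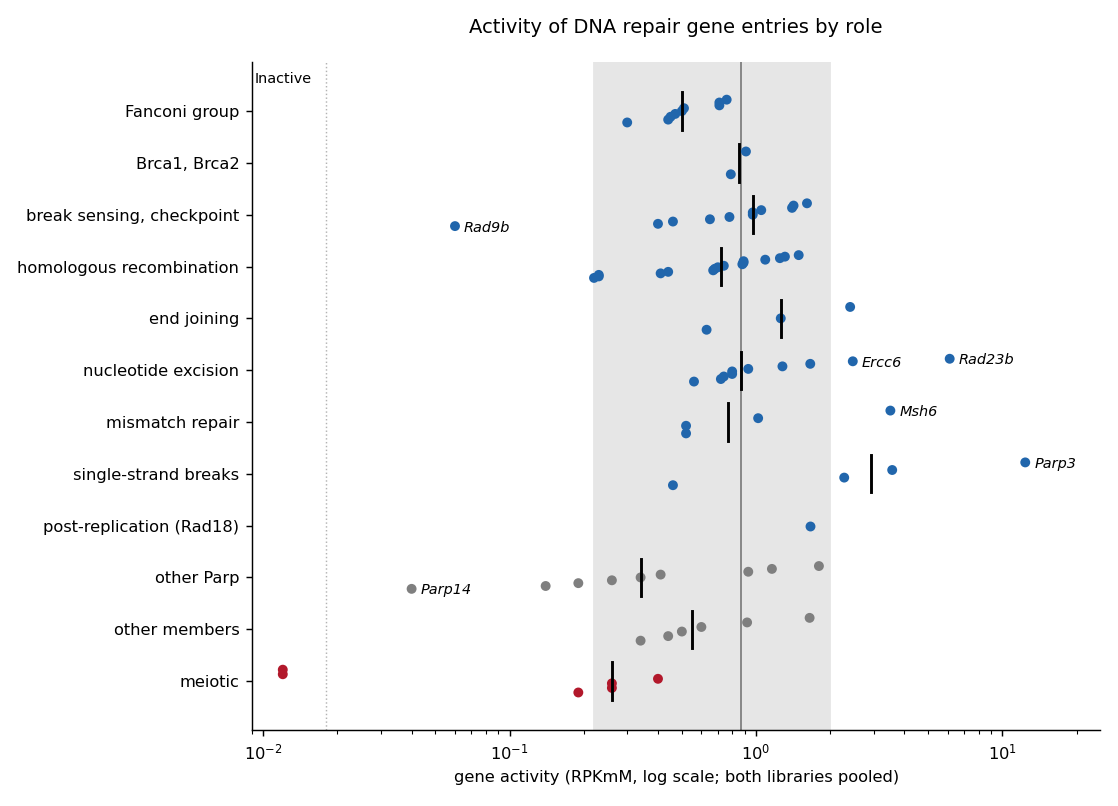
Gene activity (x axis, RPKmM on a log scale) of each RefSeq entry by role (y axis), with a black bar at the median of the active entries of a role, a grey band between the quartiles of all active entries and a grey line at their median. Parp3, Rad23b and Msh6 stand to the right of the band, Rad9b and Parp14 to the left, and the 2 inactive meiotic entries are drawn left of the dotted line.

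Where a gene had several RefSeq entries, they mostly carried like values. Of 14 such symbols with 29 entries in all, 4 had identical values, 7 differed by up to 1.5 times and 3 by more. That share, 21.4%, is near the 20.8% found over all symbols with several active entries. The 3 were Msh4 (a ratio of 2.11), Xrcc6bp1 (1.76) and Rad51b (1.68), whose entries had 0.74 and 0.44 RPKmM. Rad51b is the longest member, at 506 kb. Entries of a gene share reads and are not replicates of each other.

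Meiotic members were transcribed at lower levels than the somatic repair members, and their 4 genes fell into active and inactive pairs. All 60 somatic repair entries were active, with a median of 0.785 RPKmM and quartiles of 0.518 and 1.27, and 20 of them, or 33.3%, reached 1 RPKmM, near the 32.3% of all entries. Of the 6 meiotic entries 4 were active, or 66.7%, near the 70.2% of all entries, with a median of 0.26 RPKmM, and none reached 1 RPKmM. The ratio of the medians was 3.02. The classes overlapped: 5 of the 60 somatic entries lay below the highest meiotic entry, and 1, Rad9b, lay below the lowest active meiotic entry. Rad9b was counted as somatic although known mainly from testis, and the ratio was 3.04 with it among the meiotic members. The meiotic median rests on 4 entries of 2 genes, Msh4 and Msh5, and entries of a gene share reads. With so few genes and pooled libraries, this difference has no replicate check. A low level was not particular to the meiotic class, since the Parp genes outside Parp1, Parp2 and Parp3 had a median of 0.34 RPKmM.

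Msh4 and Msh5 form the heterodimer that holds recombination intermediates in place during meiosis. The Msh4 entries NM_031870 and NM_001282054 had 0.4 and 0.19 RPKmM, and both Msh5 entries had 0.26 RPKmM. By the mean of their entries the partners differed by 1.13 times, and they lay above 23.5% to 32.4% of active entries. Rad21l, a cohesin subunit of meiotic chromosome axes, and Rad51ap2, a gene known from testis, were listed as inactive. The somatic relative Rad51ap1 had 0.41 RPKmM.

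The promoters of these 4 meiotic genes and of the 2 somatic members Msh6 and Parp3 differ in base composition, and are printed so that the CpG content can be seen beside the activity. Each run covers 250 bases before to 50 bases after a start site, 5′ to 3′ on the strand of the gene, from RefSeq on GRCm38.p6, with every CpG in capitals. These positions are of another build than the mm9 positions given elsewhere.
Msh6: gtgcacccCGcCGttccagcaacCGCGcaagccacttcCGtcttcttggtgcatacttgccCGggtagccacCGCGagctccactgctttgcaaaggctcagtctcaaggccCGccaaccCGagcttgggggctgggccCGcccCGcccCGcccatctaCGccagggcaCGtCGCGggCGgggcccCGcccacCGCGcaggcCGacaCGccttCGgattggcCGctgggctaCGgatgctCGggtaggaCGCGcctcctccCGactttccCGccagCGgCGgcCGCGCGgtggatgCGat
Parp3: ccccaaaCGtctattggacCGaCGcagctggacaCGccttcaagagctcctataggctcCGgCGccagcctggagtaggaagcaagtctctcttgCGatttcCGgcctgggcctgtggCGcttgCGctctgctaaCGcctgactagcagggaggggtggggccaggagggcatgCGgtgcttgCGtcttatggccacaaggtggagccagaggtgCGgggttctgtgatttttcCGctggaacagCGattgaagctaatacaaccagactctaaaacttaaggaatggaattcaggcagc
Msh4: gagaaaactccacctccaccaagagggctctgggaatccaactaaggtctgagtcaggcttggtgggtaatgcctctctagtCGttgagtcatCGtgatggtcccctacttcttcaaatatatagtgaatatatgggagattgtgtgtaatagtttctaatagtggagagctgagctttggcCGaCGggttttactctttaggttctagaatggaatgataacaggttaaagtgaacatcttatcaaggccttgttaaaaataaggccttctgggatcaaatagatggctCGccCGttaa
Msh5: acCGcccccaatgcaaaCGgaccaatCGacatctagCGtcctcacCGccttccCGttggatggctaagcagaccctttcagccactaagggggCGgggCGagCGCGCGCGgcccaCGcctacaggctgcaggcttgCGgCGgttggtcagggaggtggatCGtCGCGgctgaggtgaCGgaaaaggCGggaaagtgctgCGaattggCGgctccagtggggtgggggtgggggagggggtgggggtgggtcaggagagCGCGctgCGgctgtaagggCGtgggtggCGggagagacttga
Rad21l: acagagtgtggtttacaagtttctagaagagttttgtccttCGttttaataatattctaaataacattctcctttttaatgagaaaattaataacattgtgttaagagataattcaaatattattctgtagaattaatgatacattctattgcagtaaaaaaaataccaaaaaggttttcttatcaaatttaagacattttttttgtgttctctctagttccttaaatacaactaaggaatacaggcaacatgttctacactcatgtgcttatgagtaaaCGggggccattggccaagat
Rad51ap2: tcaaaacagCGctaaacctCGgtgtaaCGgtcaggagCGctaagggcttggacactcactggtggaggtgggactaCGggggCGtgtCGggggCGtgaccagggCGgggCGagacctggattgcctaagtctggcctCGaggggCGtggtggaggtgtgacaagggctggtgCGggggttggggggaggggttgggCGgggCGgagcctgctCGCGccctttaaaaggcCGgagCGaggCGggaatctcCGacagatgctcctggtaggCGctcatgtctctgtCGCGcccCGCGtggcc

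Msh6 lies at chr17:87974800-87975099 on the plus strand, with 37 CpG and 71.7% G and C. Parp3, the most active member, had fewer, with 16 CpG and 57.7% at chr9:106476900-106477199 on the minus strand. The median over all promoters of that table was 7 CpG, with quartiles of 3 and 20. Among the meiotic genes the CpG number did not separate active from inactive members. The active pair had 6 CpG and 43.3% G and C for Msh4 (chr3:153904842-153905141, minus strand) and 27 CpG and 67.3% for Msh5 (chr17:35046573-35046872, minus strand). The inactive pair had 2 CpG and 29.0% for Rad21l (chr2:151668484-151668783, minus strand) and 26 CpG and 67.0% for Rad51ap2 (chr12:11455805-11456104, plus strand). The letters TTTCCCGC, a form of the site bound by the cell cycle factors of the E2F family, stood in the Msh6 run on the strand printed and in the Msh5 run on the other strand. TTTCCCGC or TTTGGCGC on either strand occurred in 1.56% of all promoters of the table, and a match of letters is not a measured site.

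Over a wider window, 1 kb on either side of the annotated 5′ end in mm9, members were richer in CpG than genes at large. The ratio of observed to expected CpG was at least 0.6 in 37 of the 66 members, or 56.1%, where 38.7% of all placed symbols and 49.7% of the active ones reached it. Of the somatic repair genes 31 of 49, or 63.3%, reached it, with a median of 0.677. None of the 4 meiotic genes did, although Rad51ap2 at 0.595 and Msh5 at 0.585 lay just below, Msh4 had 0.516 and Rad21l had 0.221. The lowest members at the annotated end were Fancl with 0.121, Xrcc6 with 0.146 and Parp11 with 0.21, all 3 active. CpG content depends on the start site and the window as well. In its 300 bases the RefSeq promoter of Xrcc6 held 30 CpG. The 2 RefSeq promoters of Parp11 held 5 and 25 CpG, while that of Fancl held 3. These are counts, and the ratio was not recomputed at the RefSeq starts. TTTCCCGC or TTTGGCGC lay between 250 bases before and 50 bases after the annotated 5′ end in 4 members, Brca2, Msh3, Msh6 and Rad51c. That is 6.06%, against 2.24% of all placed symbols and 2.82% of the active ones. In the RefSeq promoters, which were found for 51 of the 66 members, 7 members held the letters, these 4 and Fancg, Msh5 and Xrcc6, where 1.56% of all promoters of that table did. The count thus moves with the start site chosen.

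The surroundings of the 4 meiotic genes differed between the active and the inactive pair. Msh4 (mm9 chr3:153520111-153569102, minus strand) starts 1150 bases past the end of Rabggtb, which encodes a subunit of the enzyme that attaches geranylgeranyl groups to Rab proteins, runs on the same strand and had 41.05, 33.62 and 45.89 RPKmM over its 3 entries. Msh5 (mm9 chr17:35165550-35183690, minus strand) has Clic1, a chloride channel gene, upstream on the opposite strand, and Clic1 had 41.8 RPKmM. Rad21l (mm9 chr2:151471140-151494269, minus strand) and Rad51ap2 (mm9 chr12:11462885-11469734, plus strand) have no protein-coding gene in the 10 kb upstream. The nearest mapped neighbours, Snph and Vsnl1, both known from neurons, were inactive. A gene of at least 10 RPKmM lay in the 10 kb upstream of 3 members, Msh4 and Msh5 among them, or 4.55%, against 1.02% of all placed symbols. Clic1 is transcribed in the direction away from Msh5. Whether reads from transcription that begins or ends at these neighbours enter the values of Msh4 or Msh5 was not tested.

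**Figure D3:**
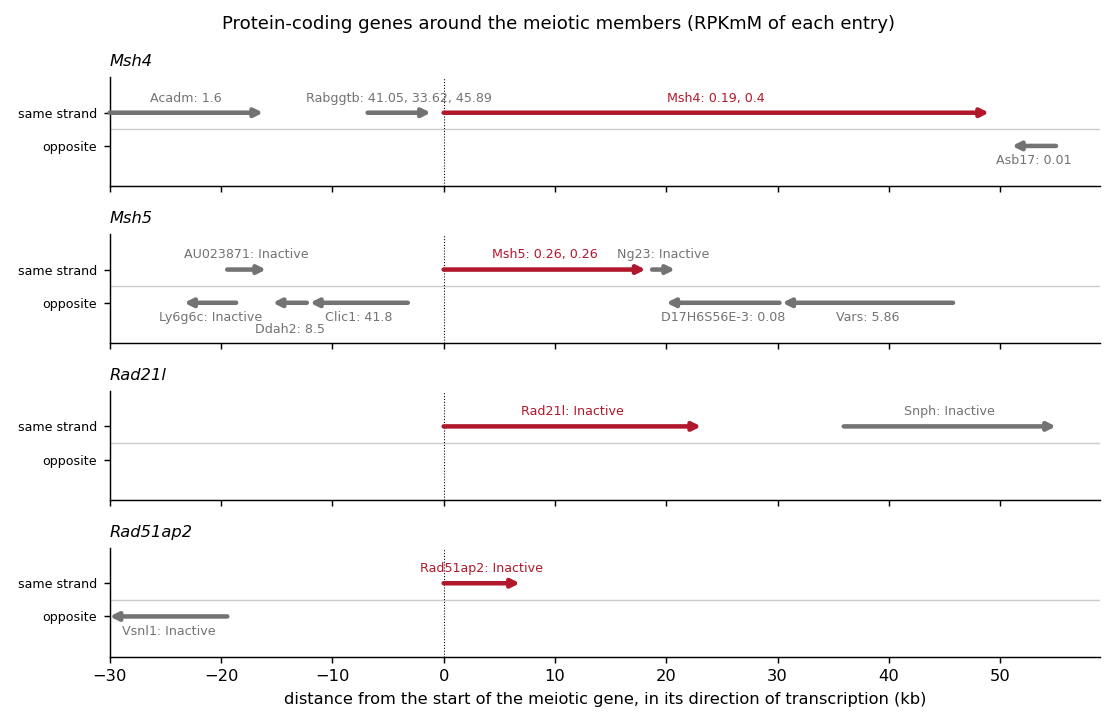
Protein-coding genes around the 4 meiotic members, drawn to scale as arrows by distance in kb from the start of the meiotic gene in its direction of transcription (x axis), above the line where they share its strand and below it where they do not, with the RPKmM of each entry. Rabggtb and Clic1 lie upstream of the active Msh4 and Msh5, and the genes drawn near Rad21l and Rad51ap2 are inactive.

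Genes of the same routes that carry other names gave a like contrast. These lists were compiled from known roles. Of 85 entries of 74 other repair genes, 84 were active, or 98.8%, with a median of 0.9 RPKmM, where 70.2% of all entries were active. At least 1 RPKmM was reached by 39 of them, or 45.9%, against 32.3% of all entries. The highest were Ddb1, which encodes a damage-binding adaptor of a ubiquitin ligase, at 38.46 RPKmM, Usp1, the deubiquitinase of the Fanconi route, at 8.74 RPKmM, and the uracil glycosylase gene Smug1 at 7.51 RPKmM. The single inactive entry was that of Mgmt, which removes alkyl groups from guanine. Of 44 entries of 34 other meiotic genes, 13 were active, or 29.5%, below the 70.2% of all entries, with a median of 0.16 RPKmM.

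The active meiotic genes outside the families were mostly near the bottom of the scale. Psmc3ip, a partner of the meiotic strand-exchange protein, was the exception at 3.12 RPKmM. It starts 885 bases past the end of Fam134c, which runs on the same strand and had 3.01 and 3.04 RPKmM, and the part of such reads in the Psmc3ip value was not tested. Its partner Mnd1 had 0.33 RPKmM and the histone methyltransferase gene Prdm9 had 0.26 RPKmM. Syce2, part of the structure that pairs chromosomes, had 0.17 RPKmM in both entries, and Mlh3, which also serves somatic mismatch repair, had 0.16 RPKmM in both. Rec114, needed to make meiotic breaks, had 0.06 RPKmM and Hsf2bp, which binds Brca2, had 0.05 RPKmM. Sycp3, of the chromosome axis, had 0.02 RPKmM, and Ccdc79, the axis gene Hormad2 and the strand-exchange gene Dmc1 had 0.01 RPKmM. Msh4 and Msh5 thus had levels like those of Mnd1 and Prdm9. Over members and list together, 10 of the 13 active meiotic genes, or 76.9%, had an active gene in the 10 kb upstream, and 8 of the 25 inactive ones did, or 32.0%. The same share was 40.0% over all active symbols and 14.6% over all inactive symbols, and 32.6% over all placed symbols. The difference between active and inactive genes was therefore present at large as well, and its part in the meiotic values was not tested.

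**Figure D4:**
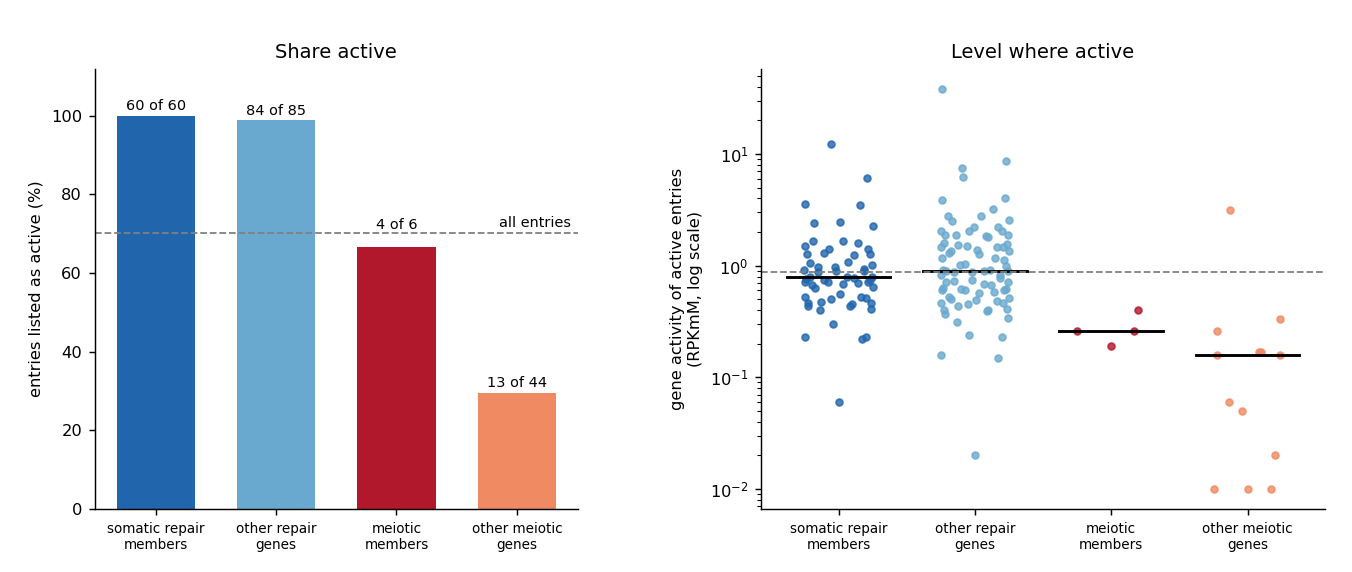
Left, share of RefSeq entries listed as active (y axis, %) in the somatic repair and meiotic members and in the lists of other repair and other meiotic genes, with the share of all entries as a dashed line. Right, gene activity of the active entries (y axis, RPKmM on a log scale) with a black bar at each median and a dashed line at the median of all active entries: the medians are 0.785, 0.9, 0.26 and 0.16 RPKmM.

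Many of the somatic repair genes shared a promoter region with a neighbour. A protein-coding gene starting within 1 kb on the opposite strand, head to head, was found for 15 of the 66 members, or 22.7%, where 12.4% of all placed symbols and 15.9% of the active ones had such a neighbour. All 15 were somatic repair genes, 30.6% of the 49 in that class, and none of the 4 meiotic genes was among them. The 15 include Rad9b, which is known mainly from testis, and counting it as meiotic would put a meiotic gene among them. The other repair genes had a share of 40.5%, or 30 of 74, and the other meiotic genes a share of 8.82%, or 3 of 34, of which none was active.

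Within these pairs the repair gene was mostly the less active. In 12 of the 15 pairs the member was lower than its neighbour and in 3 it was higher, with a median ratio of 0.53. The like count over all head-to-head pairs of the table was not computed. These 15 members had a median highest activity of 0.71 RPKmM, against 0.96 RPKmM over all active symbols with such a neighbour. The largest difference in favour of the repair gene was that of Parp3, with 12.38 RPKmM against 0.46 RPKmM for Rrp9, a factor of ribosomal RNA processing whose start lies 320 bases away, a ratio of 26.9. The largest in the other direction was that of Rad9b, with 0.06 RPKmM against 1.05 RPKmM for the endosomal sorting gene Vps29 at 136 bases, a ratio of 0.0571. Xrcc4 and Tmem167, with starts 41 bases apart, had 0.63 and 5.07 RPKmM. Rad54l, a motor protein of homologous recombination, had 0.89 RPKmM in both entries, and Pomgnt1, an enzyme of protein glycosylation, had up to 6.44 RPKmM. Closer values were also found: 4 pairs lay within 1.5 times of each other, the closest being Ercc8 and Ndufaf2, an assembly factor of respiratory complex I, with 0.72 and 0.8 RPKmM. Atm had 0.4 RPKmM beside 1.7 RPKmM for Npat, a regulator of histone genes. Activity was counted on the sense strand, so transcripts of the neighbour that run away from the shared region are not counted for the member.

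**Figure D5:**
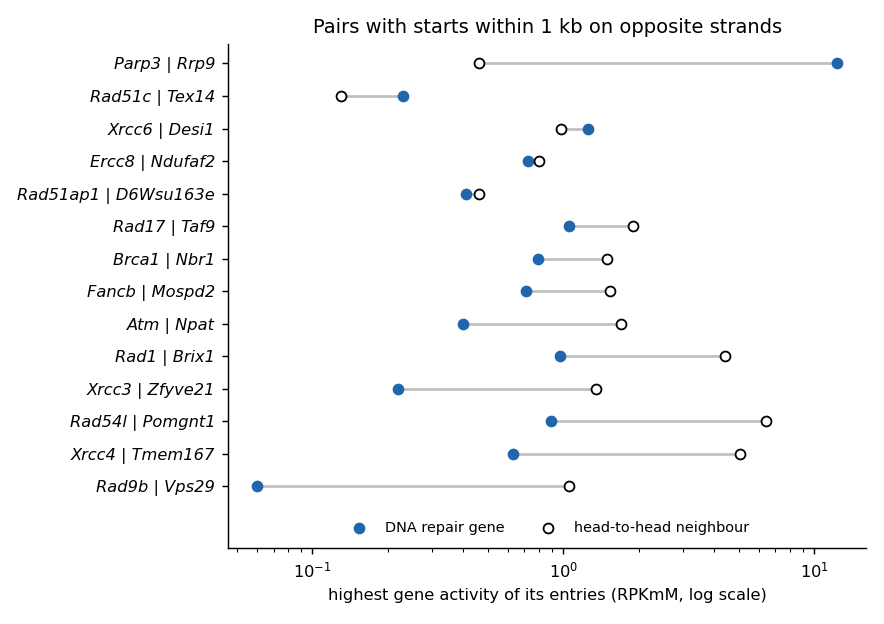
Highest gene activity among the entries of each DNA repair gene (filled points) and of its head-to-head neighbour (open points) in RPKmM on a log scale (x axis), for 14 of the 15 pairs with starts within 1 kb, ordered by the ratio. The repair gene lies to the right of its neighbour in 3 pairs, Parp3, Rad51c and Xrcc6, and to the left in 11.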

How the data were processed

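Per the labels and the study's methods, the authors prepared 2 GRO-seq libraries of untreated C2C12 myoblasts, mapped reads to mm9, pooled both libraries and deposited a table of gene activity in RPKmM, an RPKM computed over mappable bases and rounded to 2 decimals, with the word Inactive for genes at the level of gene deserts. The submitters' processing notes name CASAVA 1.8, Bowtie2 and mm9. Reads were counted on the sense strand, and 154 active entries are listed at 0. The deposited RPKM values were used as they stand. The table gives neither read counts nor mappable lengths per entry, so no counting interval was computed for single values.

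Every entry matching the symbol rule was used, and all of the table served as background. Active means that the table gives a number. Members were sorted into roles from known function. The members and lists were chosen with earlier results of these data known. Named are the highest, the lowest and the inactive members of each role, members whose entries differ by over 1.5 times, all meiotic members and, of the other lists, the highest or the active genes; other members are named for their partners. A few genes are not reported here by name, although they count in every total. Both libraries are of 1 group, so no groups were compared and no test was made.

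All 66 symbols were placed on the GENCODE annotation of mm9, 4 of them by synonym. Head-to-head neighbours are protein-coding genes on the opposite strand with a start within 1 kb upstream of a start of the gene. Starts of all annotated transcripts were used, and overlap of the genes was not tested. RefSeq promoters were found for 51 of 66 symbols, or 77.3%, too few for a check over the set, so base composition was computed from mm9 for all members. A planned comparison of Msh proteins was not run. Values were computed with pandas 2.3.3, scipy 1.17.1 and numpy 2.4.6 and drawn with matplotlib 3.10.9 in Python 3.11.15. The symbol rule, the search for head-to-head neighbours and a ratio of medians were tested on simulated data with known answers. The computation of shares was not tested in this way. Alternatives took a single entry per gene, a minimum of 0.01 RPKmM, geometric means with pseudocounts of 0.01 and 0.001, inactive entries as 0, and other sets of members. Alternatives that left out Msh4, widened the somatic class or read promoter letters in mm9 were added after the data had been seen.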

Additional observations from a re-analysis of the deposited data

How the results depend on the processing

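Of 93 recomputed values 41 equalled the reported value, many of them because the setting left the entries of a role as they were, and the other 52 stayed within 1.5 times of it. The median of the members ran from 0.71 to 0.785 RPKmM, and their geometric mean was 0.707 or 0.702 RPKmM by the pseudocount. The active share ran from 97.0% to 97.5%, and the ratio of the somatic to the meiotic median from 2.42 to 3.49. Leaving out Msh4 could not move that ratio, since both Msh5 entries sit at the median either way. The order of the role groups is less firm. Beside the overall median of 0.87 RPKmM, the median of mismatch repair ran from 0.77 to 1.02 RPKmM. That of break sensing ran from 0.863 to 0.97 and that of nucleotide excision repair from 0.865 to 0.93 RPKmM. Geometric means were 0.694 and 0.701 RPKmM for break sensing and 1.19 RPKmM for nucleotide excision repair. No geometric mean over all active entries was computed to set beside them. The share of members with a head-to-head neighbour was 22.7% at 500 bases too. No paired analysis was possible because both libraries were pooled into a single value, and for the same reason no library could be left out. Rounding to 2 decimals limits the lowest values: 0.04 RPKmM for Parp14 and 0.06 RPKmM for Rad9b carry a single significant digit, and ratios that rest on them are coarse.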

Other observations

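Gene length varied widely among the members, from 6.41 kb for Rad9a to 506 kb for Rad51b, with a median of 34.0 kb against 20.9 kb over all placed symbols. Across the 64 active member genes, Spearman's rho between gene length and highest activity was -0.0272, and across 13397 active symbols it was -0.0266. Both are correlations across genes, which share libraries and are not independent replicates. Parp9 and its partner Dtx3l, on the opposite strand, were not counted as a head-to-head pair. No start of Dtx3l lay within 1 kb upstream of a Parp9 start.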
